A study of Caenorhabditis elegans with 8 samples.

Results

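The troponin complex and tropomyosin are the proteins that make the thin filament of striated muscle respond to calcium. This account follows the 10 genes that encode them in Caenorhabditis elegans and that were chosen by gene symbol: the troponin T genes mup-2, tnt-2, tnt-3 and tnt-4, the troponin I genes unc-27, tni-1, tni-3 and tni-4, the troponin C gene pat-10 and the tropomyosin gene lev-11. They are 10 of the 26787 genes that at least 1 probe of the array names. Each of the 10 has exactly 1 probe, so the choice of the brightest probe per gene decided nothing, and all 10 match a RefSeq gene of the same symbol.

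RNA came from whole synchronized populations of wild-type N2 Bristol worms on OP50 bacteria at 20 °C, with no treatment beyond ageing. The groups were day 1 (3 arrays), day 6 (3 arrays) and day 12 of adulthood (2 arrays), hybridised to the Affymetrix C. elegans Gene 1.1 ST array. The labels call the replicates biological and say no more about separate cultures, so the p-values measure the spread between these samples. Values are log2 signal as deposited. Array medians lay between 2.32 and 2.4, and the number of arrays, above all the 2 at day 12, limits the precision.

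In resting muscle, tropomyosin lies along actin and keeps myosin from binding it. Troponin I holds that blocked state, troponin C binds the calcium that releases it, and troponin T ties the complex to tropomyosin. C. elegans has separate genes for its muscle types: mup-2, tnt-2, tnt-3, unc-27, tni-1, tni-3 and pat-10 are treated here as body wall forms, a class that also covers vulval and anal muscle, while tnt-4, tni-4 and the troponin C gene tnc-2, which is no member of the 10, serve the pharynx, the feeding pump. The single tropomyosin gene lev-11 makes isoforms for both muscles.

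Of the 10 genes, 7 fell between day 1 and day 12 and none rose. The largest difference was in the troponin T gene tnt-2, followed by unc-27 among the troponin I genes and by the troponin C gene pat-10. The genes that were not called were the pharyngeal forms tnt-4 and tni-4 and the body wall troponin I gene tni-1. All 10 differences were negative, with a median of -2.05 on the log2 scale against -0.01 over the 26761 probes tested. Called means an adjusted p under 0.05 by limma, with Benjamini-Hochberg adjustment over those probes, and differences are later minus earlier day on the log2 scale. In this comparison 14.1% of all tested probes were called, 4.52% lower and 9.58% higher (68% of calls higher, against 57% with quantile normalization), and the share called lower was 10.7% among the probes with a mean log2 signal of at least 4, a level that all 10 genes reached. Because the samples are whole animals, fewer cells of a muscle and less RNA per cell cannot be told apart.

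**Figure D1:**
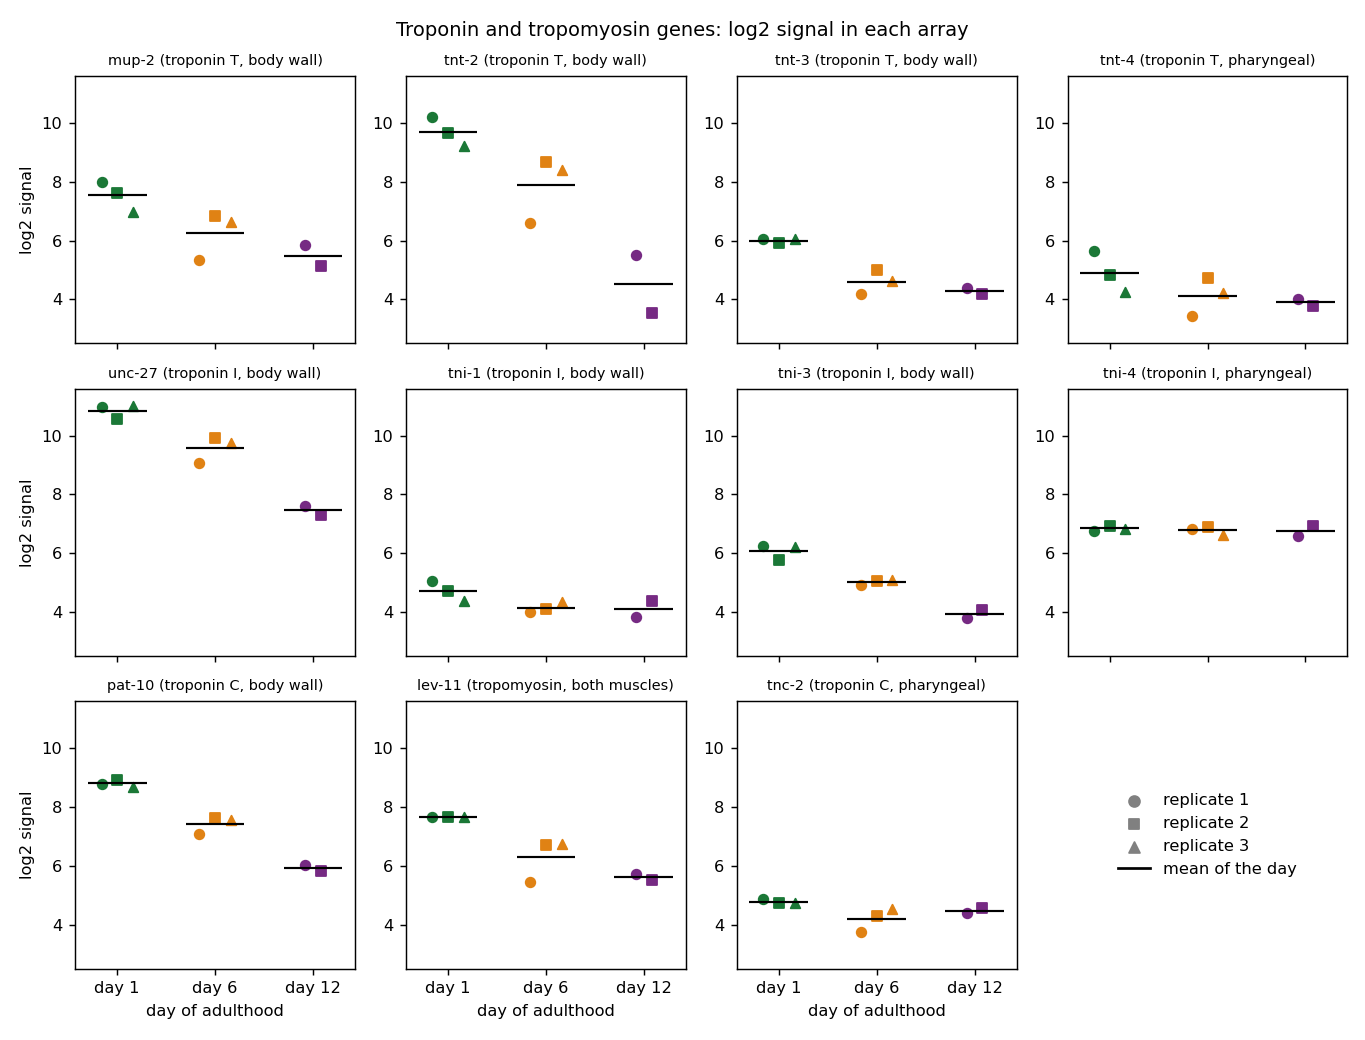
Log2 signal (vertical axis) of the 10 troponin and tropomyosin genes and of tnc-2 in each of the 8 arrays, by day of adulthood. Points are arrays, the shape gives the replicate number and the line is the mean of the day. The unc-27, tni-3 and pat-10 arrays step down from day to day without overlap, while the tni-4 arrays stay between 6.60 and 6.93.

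Among the troponin T genes, tnt-2 (F53A9.10) showed the widest range. Its log2 signal was 10.22, 9.67 and 9.20 at day 1, then 6.60, 8.67 and 8.40 at day 6, and 5.50 and 3.54 at day 12. The days did not overlap, and the SD was 0.51 at day 1, 1.13 at day 6 and 1.39 at day 12 (n = 3, 3 and 2). The spread at day 6 came mostly from replicate 1 (6.60), and a difference in spread between ages was not tested. Between day 12 and day 1 it fell 36.2-fold, a log2 difference of -5.18 ± 0.66 (SE; limma adjusted p = 0.00041), the 12th lowest of the 26761 probes. Between day 12 and day 6 the difference was -3.38 ± 0.66 (limma adjusted p = 0.00861). Without day 12 replicate 2 this call was lost (-2.40, limma adjusted p = 0.115), and it was also lost with an intensity trend and robust hyperparameters (limma adjusted p = 0.0763). The fall from day 1 to day 12 was still called without day 12 replicate 2, at -4.20. Between day 6 and day 1 the difference of -1.80 ± 0.59 was not called (limma adjusted p = 0.142).

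The gene mup-2 (T22E5.5), whose loss disturbs muscle positioning in the embryo, encodes another body wall troponin T. It gave 8.0, 7.63 and 6.98 at day 1, 5.34, 6.83 and 6.64 at day 6, and 5.84 and 5.13 at day 12. Every later array lay below every day 1 array. Day 12 replicate 1 lay within the range of day 6, and day 12 replicate 2 lay below it. It fell between day 1 and day 12 by 2.05 ± 0.44 on the log2 scale (limma adjusted p = 0.01), a call that was lost without day 12 replicate 2 (-1.70, limma adjusted p = 0.118). Its differences between neighbouring ages, -1.27 for day 6 minus day 1 and -0.78 for day 12 minus day 6, were not called. They turned on single arrays: without day 6 replicate 1 they were -0.81 and -1.25 (limma adjusted p = 0.316 and 0.0619), and without day 12 replicate 2 the second was -0.43.

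The third body wall form, tnt-3 (C14F5.3), had tight replicates at day 1, with 6.05, 5.90 and 6.04. At day 6 it gave 4.17, 5.0 and 4.61, and at day 12 4.38 and 4.18. Day 1 stood above both later ages, which overlapped each other. The drop was thus measured by day 6 (-1.40 ± 0.20, limma adjusted p = 0.00627), and the further difference to day 12 was -0.31, with a 95% interval of -0.80 to 0.18. From day 1 to day 12 it fell 3.28-fold (-1.72 ± 0.22, limma adjusted p = 0.000456).

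The pharyngeal troponin T gene tnt-4 (T08B1.2) gave 5.64, 4.82 and 4.23 at day 1, 3.44, 4.72 and 4.23 at day 6, and 4.03 and 3.79 at day 12. The day 1 and day 6 arrays overlapped, and the spread at day 1 (SD 0.71, n = 3) was close to the difference to day 6 (-0.77 ± 0.37). Between day 12 and day 1 the arrays did not overlap, yet the difference of -0.99 was not called (limma adjusted p = 0.17). Its interval, -1.92 to -0.07, is wide and takes in a fall as large as that of tnt-3.

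Among the troponin I genes, unc-27 (ZK721.2), the main body wall form whose mutants move poorly, fell most. It gave 10.96, 10.56 and 10.99 at day 1, 9.07, 9.93 and 9.76 at day 6, and 7.62 and 7.30 at day 12. Each age lay wholly below the one before it. From day 1 to day 12 it fell 10.4-fold (-3.38 ± 0.26, limma adjusted p = 1.6e-05). The difference was -1.25 ± 0.23 between day 6 and day 1 (limma adjusted p = 0.0169) and -2.13 ± 0.26 between day 12 and day 6 (limma adjusted p = 0.000475).

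The gene tni-3 (T20B3.2), a troponin I of body wall and vulval muscle, fell over both intervals by nearly the same amount. Its arrays were 6.25, 5.76 and 6.20 at day 1, 4.93, 5.06 and 5.08 at day 6, and 3.80 and 4.05 at day 12. No day overlapped another. The log2 difference was -1.05 ± 0.17 between day 6 and day 1 (limma adjusted p = 0.00913) and -1.09 ± 0.18 between day 12 and day 6 (limma adjusted p = 0.00364). Day 12 was 4.42-fold below day 1 (limma adjusted p = 3.1e-05).

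By contrast with these, tni-1 (F42E11.4) was the body wall form with the smallest difference. At day 1 tni-1 also had the lowest mean of the body wall forms, 4.72, the next being tnt-3 with 6.0. Hence tni-1 had less room to fall, and the part of its signal level was not tested. It gave 5.06, 4.71 and 4.39 at day 1, 4.0, 4.09 and 4.34 at day 6, and 3.82 and 4.37 at day 12. All later arrays lay below day 1, but 1 array at day 6 and 1 at day 12 came within 0.05 of the lowest day 1 array. Its difference between day 12 and day 1, -0.63 with a 95% interval of -1.15 to -0.11, was not called (limma adjusted p = 0.118), nor was that between day 6 and day 1 (-0.58). Leaving out each array gave -0.90 (without day 12 replicate 2) to -0.35 (without day 12 replicate 1) for day 12 minus day 1, and quantile normalization gave -0.88, close to the threshold (limma adjusted p = 0.0529).

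The pharyngeal troponin I gene tni-4 (W03F8.1) moved least of the 10. Its log2 signal was 6.77, 6.93 and 6.82 at day 1, 6.81, 6.90 and 6.60 at day 6, and 6.60 and 6.93 at day 12, so that the 3 ages overlapped throughout. The difference between day 12 and day 1 was -0.08, and its 95% interval of -0.45 to 0.30 holds no fall as large as that of any called member. The interval between day 6 and day 1 was -0.40 to 0.26.

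Troponin C was represented by pat-10 (F54C1.7), whose loss paralyses and arrests embryos. It gave 8.80, 8.94 and 8.67 at day 1, 7.09, 7.62 and 7.57 at day 6, and 6.02 and 5.83 at day 12. The ages were fully separated, and the SD within a day was at most 0.29. It fell 7.35-fold from day 1 to day 12 (-2.88 ± 0.19, limma adjusted p = 8.23e-06), by 1.38 to day 6 (limma adjusted p = 0.0037) and by a further 1.5 to day 12 (limma adjusted p = 0.000649). Its pharyngeal counterpart tnc-2 (ZK673.7) gave 4.87, 4.72 and 4.73 at day 1, 3.76, 4.30 and 4.52 at day 6, and 4.38 and 4.57 at day 12. The day 12 mean of tnc-2 lay between those of the other ages, its day 12 arrays overlapped day 6, and no comparison of it was called (-0.30 between day 12 and day 1, 95% interval -0.78 to 0.18).

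The tropomyosin gene lev-11 (Y105E8B.1), known from mutants that resist the drug levamisole, had 3 nearly identical arrays at day 1, with 7.67, 7.65 and 7.65. At day 6 it gave 5.43, 6.72 and 6.76, and at day 12 5.71 and 5.51. Day 6 replicate 1 lay below both day 12 arrays, while the other two lay above them. From day 1 to day 12 lev-11 fell 4.13-fold (-2.05 ± 0.34, limma adjusted p = 0.00218). Its fall by day 6 (-1.35 ± 0.30, limma adjusted p = 0.0372) lost its call in 5 of the 8 fits that left out 1 array, without any day 1 array or either day 12 array (limma adjusted p up to 0.0986). The difference between day 12 and day 6 was not called (-0.69), but it was called without day 6 replicate 1 (-1.13, limma adjusted p = 0.00307). Which of its isoforms the single probe covers is not known, so body wall and pharyngeal isoforms could not be separated.

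**Figure D2:**
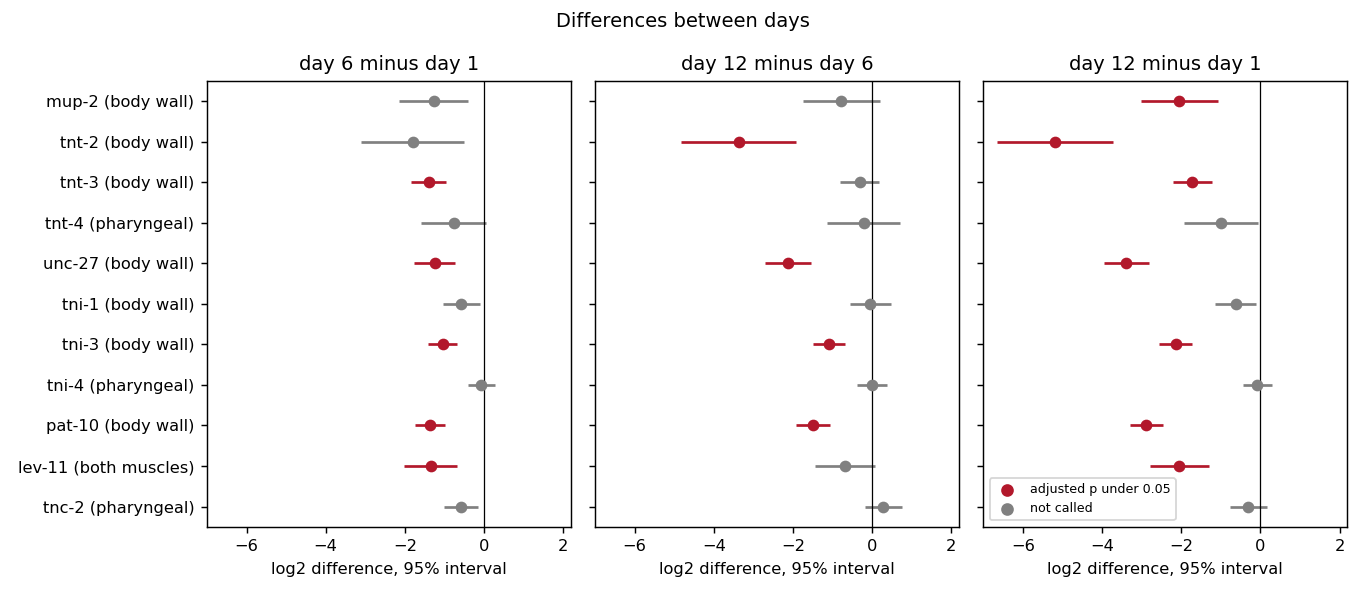
Log2 differences between days (horizontal axes; points) with 95% intervals (lines) for the 10 genes and tnc-2, red where the adjusted p was under 0.05 by limma. Among the members, 5 of 10 were called lower for day 6 minus day 1, 4 for day 12 minus day 6 and 7 for day 12 minus day 1, and the intervals of tni-4 include 0 in each panel.

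By day 6, 5 of the 10 genes had fallen: tnt-3, unc-27, tni-3, pat-10 and lev-11, with a median over all 10 of -1.26 against 0.02 over all tested probes. In that comparison 3.85% of the tested probes were called, 1.66% lower and 2.18% higher (56.8% of calls higher, against 42.4% with cyclic loess), and 4.01% were called lower of those with a mean of at least 4. Between day 12 and day 6 the falls were in tnt-2, unc-27, tni-3 and pat-10, which makes 4 of 10. Of the tested probes 9.05% were called there, 2.69% lower and 6.36% higher, and 6.9% were called lower of those with a mean of at least 4. The median over the 10 was -0.74 in that interval. Arrays of the later age all lay below those of the earlier one in 8 of 10 genes for day 6 against day 1, 9 of 10 for day 12 against day 1 and 4 of 10 for day 12 against day 6, while 8.9%, 17.4% and 20% of all tested probes did so, in the same order. Of the 7886 probes with a mean of at least 4, 1096, 1702 and 2480 did so. The 4 of 10 for day 12 against day 6 is thus not far above the share of those probes.

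Whether the later interval differed from the earlier one was tested for each gene as the second difference minus the first. Its value ran from -1.57 for tnt-2, whose later fall was the larger, to 1.09 for tnt-3, whose fall came by day 6. None of the 10 was called, and tnt-3 was the 1 gene with an unadjusted p under 0.05 (0.0119 by limma, with a limma adjusted p of 0.151). In this contrast 3.46% of all tested probes were called in either direction. The 95% interval for tnt-2 ran from -3.93 to 0.79, so the 8 arrays resolve little here, and the later interval is 1 day longer than the earlier one.

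Day 6 replicate 1 was the lowest of the 3 day 6 arrays for 9 of the 10 genes, including all 7 body wall forms, with tni-4 the exception. That array was the lowest of its day for 26.8% of tested probes with a mean of at least 4. The mean log2 signal over the 7 body wall forms was 5.89 in it, against 6.74 and 6.63 in the other day 6 arrays. Other muscle genes were low in it too: 8 of 9 thick filament, 9 of 11 calcium handling and 10 of 18 thin filament partner genes had their lowest day 6 value there. So did 5 of 8 intestine markers, against 3 of 9 oocyte and eggshell and 2 of 10 neuron markers. Without this array 3 genes were still called lower at day 6 than at day 1 (tnt-3, pat-10 and lev-11), while unc-27 and tni-3 just missed (limma adjusted p = 0.0514 and 0.0506). Dropping day 1 replicate 1 also left 3 calls, with unc-27 and lev-11 missing the threshold (limma adjusted p = 0.0574 and 0.0986). The same 7 genes were called for day 12 against day 1 without day 6 replicate 1.

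**Figure D3:**
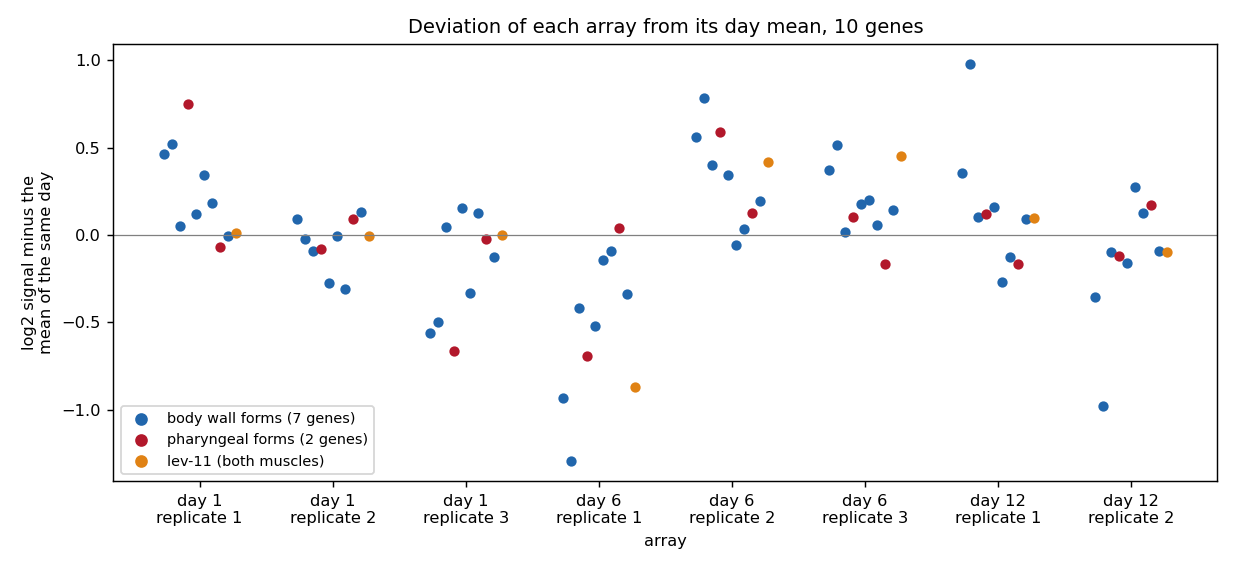
Log2 signal of each of the 10 genes minus its own mean over the arrays of the same day (vertical axis), for the 8 arrays (horizontal axis). In day 6 replicate 1 the points of 9 genes lie below 0, with a median deviation of -0.47, and the tnt-2 points are the farthest apart at day 6 and day 12.

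The question of body wall against pharyngeal forms was put to each gene pair within arrays: the log2 signal of the body wall form minus that of its pharyngeal counterpart. The size of this gap depends on the probes and says nothing about relative amounts, but its change between days compares the changes of both genes, and a shift of a whole array cancels in it. Over the 3 days, 7 gaps were tested by an exact permutation test of all 560 assignments of arrays to days, with Benjamini-Hochberg adjustment over the 7. Of these, 5 differed between days (adjusted p of at most 0.025), all with a negative change from day 1 to day 12: the body wall form fell further than its counterpart. At day 1 the counterparts tnt-4 and tnc-2 averaged 4.90 and 4.78, nearer the array medians (2.32 to 2.4) than their partners in the called pairs. Those partners averaged 9.7 (tnt-2), 7.54 (mup-2) and 8.80 (pat-10). Hence tnt-4 and tnc-2 had less room to fall, and the part of the signal range in these gaps was not tested. The gap of unc-27 to tni-4 was 4.19, 3.63 and 4.18 at day 1, 2.25, 3.03 and 3.16 at day 6, and 1.02 and 0.36 at day 12. Its change from day 1 to day 12 was -3.31 (exact p = 0.00357, the smallest that the 560 assignments can give; adjusted p = 0.00625).

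The gaps of tnt-2 to tnt-4, tni-3 to tni-4 and pat-10 to tnc-2 gave the same exact permutation p. They changed by -4.19, -2.07 and -2.58 between day 1 and day 12, with both day 12 arrays below all day 6 arrays and all day 6 arrays below day 1 in each. The gap of mup-2 to tnt-4 changed by -1.06 (exact permutation p = 0.0179, adjusted p = 0.025), and it missed the threshold in 4 of the 8 tests without 1 array. For tnt-3 against tnt-4 the change was -0.73 (exact permutation p = 0.175, adjusted p = 0.189), with day 1 gaps of 0.40, 1.09 and 1.81 that overlapped those of day 6. For tni-1 against tni-4 it was -0.55 (exact permutation p = 0.189, adjusted p = 0.189). Here tni-1, with a day 1 mean of 4.72, had less room to fall. These pairs share tnt-4 or tni-4, so they are not independent of each other.

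**Figure D4:**
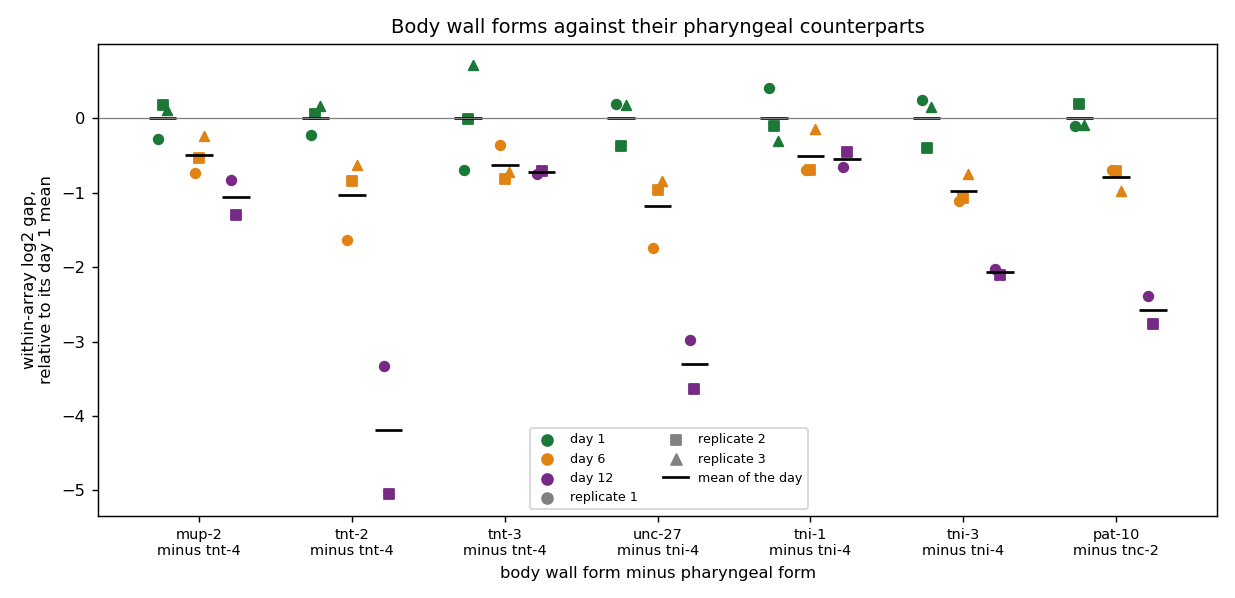
Within-array log2 gap between each body wall form and its pharyngeal counterpart, set to 0 at its day 1 mean (vertical axis), for 7 pairs. Points are arrays, colours are days, shapes are replicate numbers and lines are day means; the gaps of tnt-2, unc-27, tni-3 and pat-10 step down from day to day, and those of tnt-3 and tni-1 at day 12 lie where they lay at day 6.

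Other pharyngeal muscle genes were measured beside tnt-4 and tni-4. The pharyngeal myosin heavy chain genes myo-1 and myo-2 fell between day 1 and day 12, by 2.32 ± 0.36 (limma adjusted p = 0.0014) and 1.66 ± 0.22 (limma adjusted p = 0.000574) on the log2 scale, and in the list of 5 pharyngeal muscle markers 3 fell and none rose. The other two were tnc-2 and ceh-22, a regulator of pharyngeal muscle that read 2.28 to 2.4 on average at each age, near the floor of the signal. Of 6 pharyngeal gland markers, 1 fell, a call lost in 5 of the 8 fits without 1 array, and 5 were not called. Among those 5 gland markers, phat-1, phat-2, phat-5 and hlh-6 averaged 1.82, 1.99, 2.23 and 1.79 over the 8 arrays. These means lie below the array medians (2.32 to 2.4), so a fall could hardly show in them. The difference between myo-1 or myo-2 and tni-4 was not tested.

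Thick filament genes, the myosin side of the sarcomere, also fell. Of 9 measured, 8 fell between day 1 and day 12, with a median of -2.43, led by unc-54, which encodes the main body wall myosin heavy chain (-4.35 ± 0.48), by mlc-1 (-3.49 ± 0.24) and mlc-2 (-3.0 ± 0.29), which encode regulatory light chains, and by the paramyosin gene unc-15 (-3.05 ± 0.32). The copies mlc-1 and mlc-2 are near-identical, so how far their probes separate them is uncertain. The myosin chaperone gene unc-45 was not called (0.05, or -0.13 with quantile normalization). All 8 were still called whichever array was left out. By day 6, 7 of these 9 were called lower, but only 2 of them, mlc-1 and the essential light chain gene mlc-3, without day 6 replicate 1. The count was 3 without day 1 replicate 1 or 2, 4 without day 1 replicate 3 or day 6 replicate 3, and 7 when another array was left out.

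Thin filament partners moved in both directions. Of 18 measured, 4 fell, 2 rose and 12 were not called between day 12 and day 1, with a median of -0.20. Those that fell were the calponin-like genes clik-1 (-4.43 ± 0.38), cpn-3 (-2.42 ± 0.24) and unc-87 (-2.04 ± 0.25) and ketn-1 (-1.83 ± 0.28), which encodes the giant protein kettin. The formin gene fhod-1 (1.11 ± 0.18) and the capping protein gene cap-2 (0.63 ± 0.17) rose, of which cap-2 was lost in 6 of the 8 fits without 1 array, and the actin genes act-2 (-0.35) and act-4 (-0.34) were not called. Actin copies are near-identical, so whether these probes separate them is uncertain.

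In the list of calcium handling genes, 3 of 11 fell between day 12 and day 1 and none rose. They were csq-1, which encodes the calcium store protein calsequestrin (-3.95 ± 0.31, limma adjusted p = 1.77e-05), and the sodium-calcium exchanger genes ncx-2 (-1.22 ± 0.23) and ncx-1 (-0.66 ± 0.19). The call of ncx-1 (limma adjusted p = 0.0456) was lost in 6 of the 8 fits without 1 array, and that of ncx-2 without day 12 replicate 2 (limma adjusted p = 0.0649). The calcium channel gene egl-19 (0.33), the ryanodine receptor gene unc-68 (-0.50) and the SERCA pump gene sca-1 (-0.17) were not called. At day 1 egl-19 and unc-68 averaged 4.14 and 4.13, against 8.58 for csq-1 and 10.6 for sca-1. So egl-19 and unc-68, unlike sca-1, had less room to fall than csq-1. With quantile normalization 5 of 11 were called lower, unc-68 (-0.77) and the IP3 receptor gene itr-1 (-0.72) being the added ones.

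**Figure D5:**
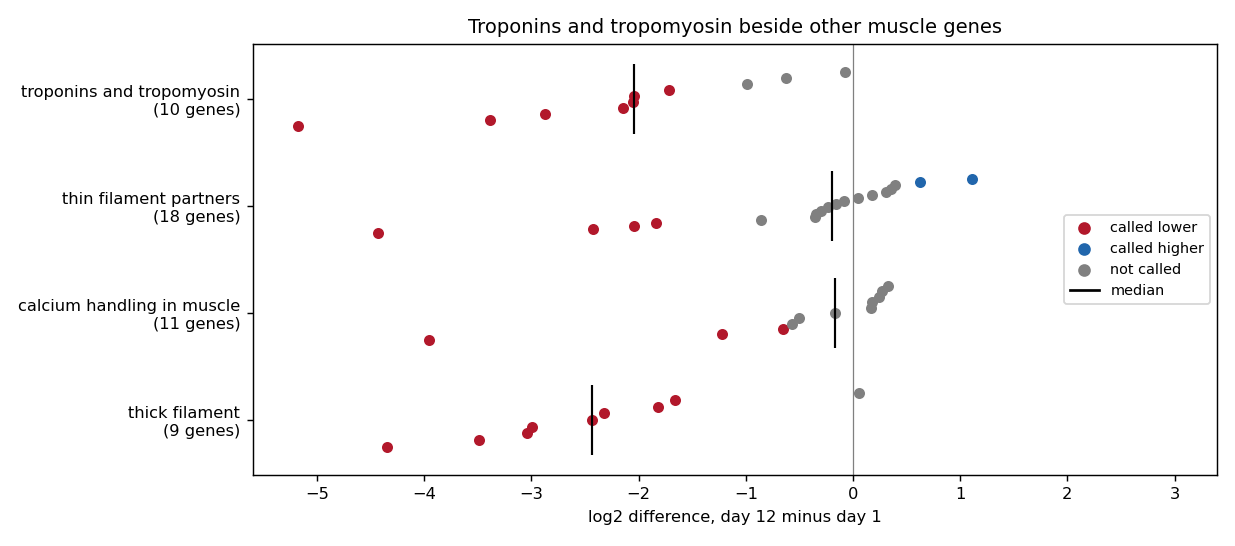
Log2 difference between day 12 and day 1 (horizontal axis) for the 10 troponin and tropomyosin genes, 18 thin filament partners, 11 calcium handling genes and 9 thick filament genes. Each point is a gene, coloured by its limma call, and black lines are medians of -2.05, -0.20, -0.17 and -2.43 from top to bottom.

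Of 8 body wall muscle markers, a list that shares unc-54, unc-15, mlc-1, mlc-2 and myo-3 with the thick filament list, 6 fell between day 12 and day 1 and none rose. Markers of other tissues moved alongside. Between day 12 and day 1, 6 of 8 intestine markers fell and none rose, and 5 of 11 embryo markers rose and none fell. With 1 day 1 or day 6 array left out, 5 to 7 intestine markers were called lower and 4 to 5 embryo markers higher. Of the other lists, 2 of 10 neuron markers rose and none fell (1 fell with quantile normalization), 1 rose and 1 fell of 10 germline, 9 oocyte and eggshell and 8 epidermis markers each, and most were not called. The germline and the oocyte and eggshell falls were not called without day 12 replicate 2, nor the germline one without day 1 replicate 3. The epidermis marker that fell was the adult cuticle collagen gene col-19, by 5.76 on the log2 scale from a day 1 mean of 9.22, and it was called whichever array was left out. The epidermis marker that rose, dpy-7, averaged 1.81 at day 1, near the floor of the signal like rol-6, bli-1, bli-2, col-10 and col-144, and it was not called with quantile normalization. The mean log2 signal per array over the oocyte and eggshell markers was 9.89 to 9.99 at day 1, 10.06 to 10.14 at day 6 and 9.68 to 9.90 at day 12, and over the embryo markers 3.83 to 4.05, 4.27 to 4.36 and 4.75 to 4.83. Over the intestine markers it was 6.23 to 6.83 at day 1, 5.34 to 5.64 at day 6 and 4.41 to 4.58 at day 12. The muscle regulators hlh-1 and unc-120 read 2.61 to 3.34 on average at each age, and neither was called. The part of these tissues in the troponin differences was not tested.

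The genes whose course over the 8 arrays was most like the mean course of the 7 body wall forms were sought among 7703 genes with a mean of at least 4. They were unc-15 (r = 0.997), the myosin essential light chain gene mlc-3 (r = 0.994), sec-61.A, a subunit gene of the endoplasmic reticulum translocon (r = 0.994), unc-54 (r = 0.993) and T23E7.2 (r = 0.993). Likeness was Pearson's r over 8 arrays that fall into 3 ages, so any gene that steps down with age scores high. It ignores size: between day 1 and day 12 sec-61.A differed by -0.87 and unc-54 by -4.35. For the mean of tnt-4 and tni-4, the most alike were B0222.5 (r = 0.954), dhgd-1 (r = 0.939), nlp-24 (r = 0.932), act-2 (r = 0.926) and the glutamate transporter gene glt-1 (r = 0.912). That mean followed tnt-4 (r = 0.98) and hardly tni-4 (r = 0.28).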

How the data were processed

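Per the labels, total RNA from whole synchronized populations (Trizol) was biotinylated and put on 1 array per sample. The authors deposited 29317 probes by 8 arrays. The deposited values were read as log2 signal because they run from 0.69 to 13.23 with none below 0. The sources used here do not name the software, background correction or normalization.

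A platform table named a gene for 26761 probes, which were tested. All 8 arrays entered 1 model with a mean for each day, in limma 3.58.1 in R 4.3.3 (lmFit, eBayes, two-sided, 5 residual degrees of freedom). Gaps between gene pairs were tested with Python 3.11.15. Both tests were tried on simulated data. Alternatives were 3 scalings, 2 probe sets, robust trend, 2-day fits, a replicate block, gene means and each array left out. Counts for the gene lists after rescaling and without each array were added after seeing the data.

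The 10 genes, gene lists, pairs and tests were chosen with earlier results of these data known. Named genes were the 10, tnc-2, myo-1, myo-2, up to 4 called genes per list with the largest day 12 to day 1 difference, and the 5 most alike. The genes fhod-1, cap-2, unc-45, act-2, act-4, egl-19, unc-68, sca-1, itr-1, mlc-3, col-19, dpy-7, rol-6, bli-1, bli-2, col-10, col-144, ceh-22, phat-1, phat-2, phat-5, hlh-6, hlh-1 and unc-120 were named after their values were seen. Of 20 thin filament partners listed, 18 had a probe.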

Additional observations from a re-analysis of the deposited data

Results flagged for a closer look

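The test of the gap itself called 5 of the 7 pairs as different over the 3 days, and tnt-3 against tnt-4 and tni-1 against tni-4 were not called. Between day 1 and day 12 the gap changed by -4.19 for tnt-2 against tnt-4, -3.31 for unc-27 against tni-4, -2.58 for pat-10 against tnc-2, -2.07 for tni-3 against tni-4 and -1.06 for mup-2 against tnt-4, in each case with both day 12 arrays below all 3 day 1 arrays. The adjusted p was 0.00625 for the first 4 of these and 0.025 for mup-2 (exact permutation test, n = 3, 3 and 2). The mup-2 call was lost without day 1 replicate 2 or 3 or day 6 replicate 2. Without day 12 replicate 2, which leaves 1 array at day 12, the mup-2 change shrank to -0.82, the smallest of the 8 such tests. The pat-10 call was lost with the replicate number as a block.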

How the results depend on the processing

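For the 10 genes and the 7 pairs, the counts of calls kept within 1.5 times under the alternatives run, except without 1 array: leaving out each array gave 3 to 5 of 10 for day 6 against day 1 (5 in full), 6 to 7 for day 12 against day 1 (7 in full), 3 to 5 for day 12 against day 6 (4 in full), and 4 to 5 of 7 pairs (5 in full). A fit without 1 day 12 array takes the lone array to vary like the other ages. Replicate numbers recur in the 3 ages, but same-numbered arrays did not consistently deviate together (r from -0.29 to 0.33 over probes with a mean of at least 4). Deviations from means of 2 or 3 arrays constrain these r values, so they cannot decide whether the arrays were paired. With the replicate number as a block, 5, 7 and 4 genes were called, in the order above, and 4 of 7 pairs, pat-10 against tnc-2 being lost (exact permutation adjusted p = 0.0778). The blocked permutation test can give no p below 0.0278 before adjustment, which leaves little room for calls. Signs turned only for values called in no setting. Day 12 minus day 6 for tni-4 was 0.022 with quantile normalization and 0.044 with cyclic loess, and the second difference minus the first was 0.066 for tni-3 and 0.068 for pat-10 with cyclic loess and 0.000 for tni-3 with the block. Leaving out each array, tni-4 ran from -0.132 to 0.015 for day 6 minus day 1, -0.245 to 0.093 for day 12 minus day 1 and -0.176 to 0.162 for day 12 minus day 6. Over the same fits day 12 minus day 6 ran from -0.565 to 0.075 for tnt-4, -0.321 to 0.224 for tni-1 and -0.421 to 0.170 for ncx-2. The second difference minus the first ran from -0.140 to 1.140 for tnt-4, -0.441 to 1.051 for mup-2, -0.171 to 0.109 for tni-3, -0.107 to 0.232 for tni-4, -0.461 to 0.068 for pat-10 and -0.213 to 1.111 for lev-11. By Spearman's rho, mlc-3 and sec-61.A ranked 34th and B0222.5 and dhgd-1 19th in likeness.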
